A study of Mus musculus with 2 samples.

Results

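The collagen genes are the 44 genes whose symbol in the array annotation has the form of a collagen chain, Col, the number of the collagen type, a, and the number of the chain, out of 19936 named nuclear genes measured by array in the gastrocnemius of controls and of PGC-1β(i)skm-/- mutants. The rule that sets the members uses the symbol and no measured value. Each of the 2 groups was 1 array, hybridized with RNA pooled from 3 male C57BL/6 mice 8 weeks of age. All mice carried floxed alleles of PGC-1β, with LoxP sites around exon 5, and all received tamoxifen at 7 weeks, as 1 mg daily over 5 days, 1 week before the muscles were taken. The mutants also carried the HSA-Cre-ERT2 transgene, in which human skeletal actin regulatory sequences drive a tamoxifen-dependent recombinase in myofibres, so that the deletion and the transgene cannot be told apart. The controls lacked this transgene, although the sample label calls them wild-type. Myofibres are the cells in which the deletion takes place, and the array measured the whole muscle with its connective tissue, vessels and nerves.

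Collagens are extracellular matrix proteins made of 3 chains wound into a triple helix of Gly-X-Y repeats. Fibrillar collagens such as types I, III and V form the cross-banded fibrils of tendon and of the connective tissue layers around muscle and fascicles, type IV forms the sheet-like network of basement membranes, and type VI forms beaded filaments between basement membrane and interstitial matrix. FACIT collagens sit on the surface of fibrils, and further classes form hexagonal networks, anchoring fibrils or transmembrane proteins. In skeletal muscle most interstitial collagen is made by fibroblasts and tendon cells rather than by myofibres, while basement membrane is contributed by several cell types.

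Values are log2 signals, and a difference is the log2 signal of the PGC-1β(i)skm-/- array minus that of the control array. The ratio is 2 raised to this difference. There is no replicate array, so that no difference has an error or a test, and the same difference over all genes is given as the background. The log2 signals of Ppargc1b, the targeted gene, were 7.87 in control and 7.06 in mutant muscle. The myofibre markers Acta1 and Ckm had log2 signals of 13.88 and 13.82 in control and 13.91 and 13.86 in mutant muscle. In the pooled tissue, more cells of a type and more RNA per cell cannot be told apart.

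None of the 44 collagen genes had a ratio of 1.2 or more, a threshold that 1.64% of all genes passed, and none had a ratio of 0.8 or less, which 0.652% of all genes passed. A ratio of 1/1.2 or less, which 1.69% of all genes had, was not reached either. Their small differences mostly pointed the same way. The log2 difference was above 0 for 33 of the 44 genes, 75.0%, beside 49.6% of all genes, and below 0 for 11. The median was 0.04 for the collagen genes and −0.0006 for all genes. The differences ran from −0.11 for Col26a1 to 0.22 for Col1a2, and their standard deviation over the 44 genes was 0.08, beside 0.12 over all genes. With a ratio of 1.1 in place of 1.2, a threshold chosen after the values were seen, 5 collagen genes were higher, namely Col1a1, Col1a2, Col6a1, Col6a3 and Col8a1, a share near the 10.5% of all genes past it. At a ratio of 1/1.1 or less no collagen gene was lower, beside 10.1% of all genes.

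**Figure D1:**
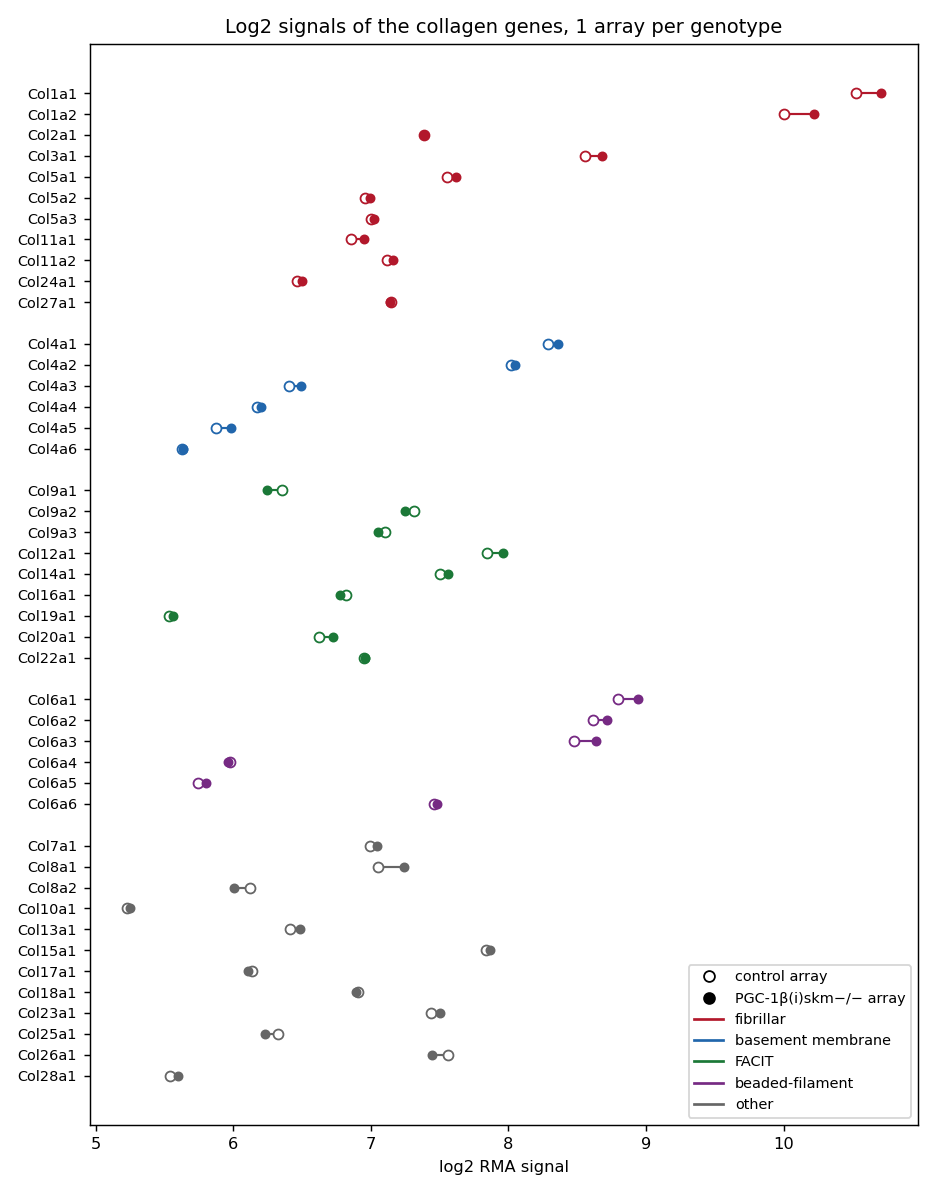
Each row is 1 collagen gene and each point its log2 RMA signal on 1 array (horizontal axis), open for control and filled for PGC-1β(i)skm-/-, coloured by collagen class. Col1a1, Col1a2 and Col8a1 show the filled point clearly to the right, while Col8a2, Col9a1 and Col26a1 show it to the left. Signals of different genes come from different probes and are not comparable in height.

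The fibrillar class, with 11 genes, had 10 genes above 0 and a median log2 difference of 0.04. Both chains of type I, the main fibrillar collagen, lay at the upper end. Col1a1, which encodes the α1 chain, had log2 signals of 10.53 in control and 10.71 in mutant muscle, a difference of 0.18 or a ratio of 1.13. Col1a2, which encodes the α2 chain, had 10.00 and 10.22, a difference of 0.22 or a ratio of 1.16. This was the largest difference of any collagen gene and ranked 645 from the top among all 19936 genes, while Col1a1 ranked 1195. Col3a1, encoding the chain of type III, which is found with type I in extensible tissues, had 8.56 and 8.68, a difference of 0.12. The 3 genes therefore differed in the same direction.

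The remaining fibrillar genes differed by less. For type V, which takes part in the start and diameter control of type I fibrils, Col5a1 had log2 signals of 7.56 and 7.62, Col5a2 of 6.96 and 6.99, and Col5a3 of 7.002 and 7.025, so that all 3 chains were above 0 but by 0.02 to 0.06 only. Col11a1 and Col11a2, of type XI, the counterpart of type V in cartilage, had differences of 0.09 and 0.04. Col2a1, the chain of cartilage type II, had log2 signals of 7.38 and 7.39, a difference of 0.01. Col24a1 differed by 0.04, and Col27a1, at −0.01, was the only fibrillar gene below 0.

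The beaded-filament class had the highest median of the 5 groups of collagens, 0.08, with 5 of 6 genes above 0, or 4 when the mean of the probe sets of Col6a5 was used, and the median was 0.12 without the genes of a mean signal under 6. The 3 classical chains of type VI, which assemble into 1 heterotrimer, were close to each other. Col6a1 had log2 signals of 8.80 in control and 8.94 in mutant muscle, a difference of 0.14. Col6a2 had 8.62 and 8.72, a difference of 0.10, and Col6a3 had 8.47 and 8.64, a difference of 0.16 or a ratio of 1.12. The alternative chains, which can take the place of the α3 chain, differed by less. Col6a4 had log2 signals of 5.98 and 5.96, Col6a5 of 5.74 and 5.80, and Col6a6 of 7.46 and 7.48. The median of 0.08 thus stands between 3 genes at 0.10 to 0.16 and 3 at −0.02 to 0.06. Of the genes with 2 probe sets, Col6a5 was at 0.06 by the one of higher signal and at −0.06 by the other, and Col6a6 at 0.02 and 0.07.

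To show the regulatory sequence next to genes that were higher together, the 250 bases upstream of the RefSeq start of Col1a2 (chr6:4505368-4505617, plus strand), Col3a1 (chr1:45311288-45311537, plus strand), Col6a1 (chr10:76726045-76726294, minus strand) and Col6a3 (chr1:90843972-90844221, minus strand) in build GRCm38.p6 are printed 5′ to 3′ on the strand of the gene. Capitals mark matches on either strand. The letters searched were CCAAT for the CCAAT box, GGGCGG for the GC box that SP1 proteins bind, and TATAAA for the TATA box. The motifs may overlap each other. Searched as well were AAGGTCA, the half-site of the estrogen-related receptors that PGC-1 proteins coactivate, and CCGGAA, the core bound by NRF-2.
Col1a2: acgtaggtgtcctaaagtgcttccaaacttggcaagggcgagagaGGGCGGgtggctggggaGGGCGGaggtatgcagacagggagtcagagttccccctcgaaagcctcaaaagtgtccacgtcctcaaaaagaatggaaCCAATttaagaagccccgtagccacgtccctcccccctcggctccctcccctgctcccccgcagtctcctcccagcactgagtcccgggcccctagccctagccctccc
Col3a1: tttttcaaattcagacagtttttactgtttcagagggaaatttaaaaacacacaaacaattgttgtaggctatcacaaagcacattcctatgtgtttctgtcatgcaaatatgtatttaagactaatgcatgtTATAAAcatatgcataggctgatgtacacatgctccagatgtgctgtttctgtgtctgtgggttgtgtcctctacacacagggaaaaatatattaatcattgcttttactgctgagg
Col6a1: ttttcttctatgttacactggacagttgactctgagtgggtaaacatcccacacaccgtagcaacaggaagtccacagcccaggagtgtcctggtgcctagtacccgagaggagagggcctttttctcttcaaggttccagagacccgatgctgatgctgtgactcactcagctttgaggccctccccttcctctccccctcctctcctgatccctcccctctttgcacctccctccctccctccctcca
Col6a3: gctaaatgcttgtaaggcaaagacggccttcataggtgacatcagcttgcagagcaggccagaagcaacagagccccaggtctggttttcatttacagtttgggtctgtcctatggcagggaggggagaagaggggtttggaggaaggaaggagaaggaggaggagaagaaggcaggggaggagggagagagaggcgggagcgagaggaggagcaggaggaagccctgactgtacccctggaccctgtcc
The Col1a2 window held 1 CCAAT match, 109 bases upstream of the start, and 2 GC boxes, 205 and 188 bases upstream, each counted at the first base of the match. The Col3a1 window held 1 TATA match, 117 bases upstream, and the windows of Col6a1 and Col6a3 held none of these letters. The windows printed here had no motif in common. They do not cover all higher genes, and the GC box of Col1a2 was also upstream of Col6a2, at 0.10, and Col8a1, at 0.19. It was upstream of Col8a2, at −0.11, as well, so that the printed windows do not decide whether higher genes share a motif.

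Over the collagen genes, 35 of 44 had a window in the RefSeq table, 38 windows in all. Col1a1, Col2a1, Col4a3, Col5a2, Col9a3, Col12a1, Col14a1, Col22a1 and Col26a1 had none there. The CCAAT letters were in 34.2% of the collagen windows and 33.8% of all 32851 windows, and the TATA letters in 13.2% and 12.4%. The GC box was in 57.9% of the collagen windows and 32.7% of all windows. The half-site AAGGTCA was in 5 of 38 windows, 13.2%, beside 4.08% of all windows, namely those of Col7a1, Col9a1, Col11a1, Col23a1 and Col24a1, whose log2 differences were 0.05, −0.11, 0.09, 0.07 and 0.04. CCGGAA was in none of the 38 windows and in 12% of all windows. A match is a run of letters and not a measured binding site.

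The basement membrane class was above 0 for all 6 genes, except that Col4a6 was below 0 when a loess curve of difference against signal was subtracted, with a median log2 difference of 0.05 and a range of 0.01 to 0.11. Col4a1 and Col4a2 encode the chains of the common type IV network found around myofibres and capillaries. Col4a1 had log2 signals of 8.29 in control and 8.36 in mutant muscle, and Col4a2 had 8.02 and 8.05. Their differences of 0.07 and 0.03 were smaller than those of type I and of the classical type VI chains. Col4a3, of a network best known from the kidney glomerulus, had 6.40 and 6.50, and Col4a4 had 6.17 and 6.20. Col4a5 had 5.88 and 5.98, the largest difference of the class at 0.11, and Col4a6 had 5.63 and 5.63. Col4a5 and Col4a6 were dim, with a mean log2 signal under 6.

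Type IV genes lie in head-to-head pairs, and each pair had 1 gene with the larger difference. It was Col4a1 at 0.07 against Col4a2 at 0.03, Col4a3 at 0.09 against Col4a4 at 0.03, and Col4a5 at 0.11 against Col4a6 at 0.01. The odd-numbered chain was the higher one in all 3 pairs. The gaps within pairs, from 0.04 to 0.10, were below the standard deviation of 0.12 over all genes, and Col4a5 and Col4a6 were dim. With 1 array per group, these 3 pairs do not establish a rule. Neighbours in other collagen clusters differed by similar amounts, with gaps from 0.04 between Col6a6 and Col6a5 to 0.14 between Col9a1 and Col19a1. Col3a1 and Col5a2, also neighbours, were 0.09 apart.

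**Figure D2:**
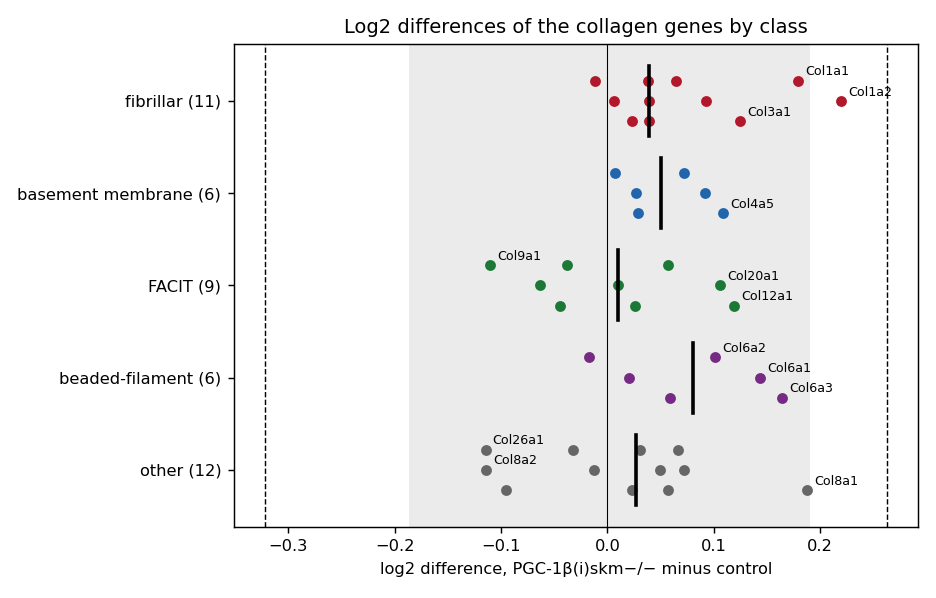
The log2 difference of mutant from control signal (horizontal axis) is plotted for the collagen genes, 1 point a gene, by class (vertical axis, with the number of genes), with names at a difference of 0.1 or more either way. Black bars are class medians, the grey band holds the middle 90% of all genes, from −0.19 to 0.19, and dashed lines mark ratios of 0.8 and 1.2. Col1a2 is the only point outside the band, and no point reaches a dashed line.

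The FACIT class was split, with 5 of 9 genes above 0 and a median of 0.01, or −0.01 without Col19a1, the 1 gene of a mean signal under 6. Col12a1, the chain of type XII in dense connective tissue and tendon, had log2 signals of 7.84 in control and 7.96 in mutant muscle, a difference of 0.12. Col14a1, of the related type XIV, had 7.50 and 7.56. Col20a1 had 6.62 and 6.73, a difference of 0.11. The 3 chains of type IX, which coats type II fibrils in cartilage, were all lower on the mutant array. Col9a1 had 6.36 and 6.25, a difference of −0.11, Col9a2 had 7.31 and 7.25, and Col9a3 had 7.10 and 7.06. Type IX was the only type with more than 1 chain on the arrays that had no chain above 0. All 3 of its differences were smaller in size than the standard deviation of 0.12 over all genes. With 1 array per group, they do not establish a trait of type IX. Col16a1 was at −0.04, Col19a1 at 0.03, and Col22a1, the collagen of the myotendinous junction, had log2 signals of 6.95 and 6.96, a difference of 0.01.

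The 12 genes of other classes had a median of 0.03, or 0.0090 without the genes of a mean signal under 6, with 7 above 0. The chains of type VIII, a short-chain collagen of vessel walls and the corneal endothelium, went opposite ways. Col8a1 had log2 signals of 7.05 in control and 7.24 in mutant muscle, a difference of 0.19 or a ratio of 1.14, the second largest of all collagen genes. Col8a2 had 6.12 and 6.01, a difference of −0.11 or a ratio of 0.924. Because these chains stand apart, their 250 upstream bases are shown in the same way, from chr16:57754738-57754987, minus strand, and chr4:126286544-126286793, plus strand.
Col8a1: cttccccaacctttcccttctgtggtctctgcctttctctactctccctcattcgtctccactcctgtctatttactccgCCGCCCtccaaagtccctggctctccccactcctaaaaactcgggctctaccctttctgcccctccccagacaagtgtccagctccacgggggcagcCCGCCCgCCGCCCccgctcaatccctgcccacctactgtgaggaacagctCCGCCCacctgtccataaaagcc
Col8a2: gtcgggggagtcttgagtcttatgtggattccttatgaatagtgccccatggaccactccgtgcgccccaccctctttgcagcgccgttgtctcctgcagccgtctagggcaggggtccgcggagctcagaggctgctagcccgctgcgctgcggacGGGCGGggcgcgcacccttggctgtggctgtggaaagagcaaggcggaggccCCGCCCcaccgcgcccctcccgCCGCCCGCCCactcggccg
Both windows held 4 GC box matches, of which 2 overlap each other in Col8a2, and no other motif searched. These letters do not tell the pair apart.

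Among the transmembrane collagens, Col13a1, a collagen of the neuromuscular junction, had log2 signals of 6.41 and 6.48, a difference of 0.07. Col23a1 had 7.44 and 7.51, also at 0.07. Col25a1, which is made by muscle fibres and takes part in motor innervation, had 6.32 and 6.23, a difference of −0.10, and Col17a1, of hemidesmosomes, was at −0.03. The class was thus divided evenly around 0. Of the multiplexins of basement membrane zones, Col15a1 had 7.83 and 7.86 and Col18a1, the precursor of endostatin, 6.91 and 6.89. Col7a1, the anchoring fibril collagen of skin, had 6.99 and 7.04. Col10a1, of hypertrophic cartilage, was dim and at 0.02. Col26a1 had 7.56 and 7.45, the lowest difference of all collagen genes at −0.11, and Col28a1 was at 0.06.

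The median difference was higher for collagen genes with a mean log2 signal of 8 or more, with no steady rise below 8. All 8 collagen genes with a mean log2 signal of 8 or more, a filter chosen after the values were seen, were above 0, beside 41.5% of the 5186 genes of that signal. They are Col1a1, Col1a2, Col3a1, Col4a1, Col4a2, Col6a1, Col6a2 and Col6a3. Their median log2 difference was 0.13, against −0.02 for all genes of that signal. A ratio of 1.1 or more was reached by 4 of the 8, beside 4.22% of those 5186 genes. The middle 90% of these genes lay between −0.19 and 0.13, and Col1a1, Col1a2, Col6a1 and Col6a3 were above it. For the 15 collagen genes with a signal from 7 to 8 the median was 0.03, with 11 above 0. It was 0.02 for the 14 genes from 6 to 7, with 8 above 0, and 0.03 for the 7 genes under 6, with 6 above 0. Over the 44 collagen genes, difference and mean signal had a Spearman rho of 0.44 and a Pearson r of 0.54, against −0.09 by both measures over all 19936 genes, as a description of genes that share the same pair of arrays.

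**Figure D3:**
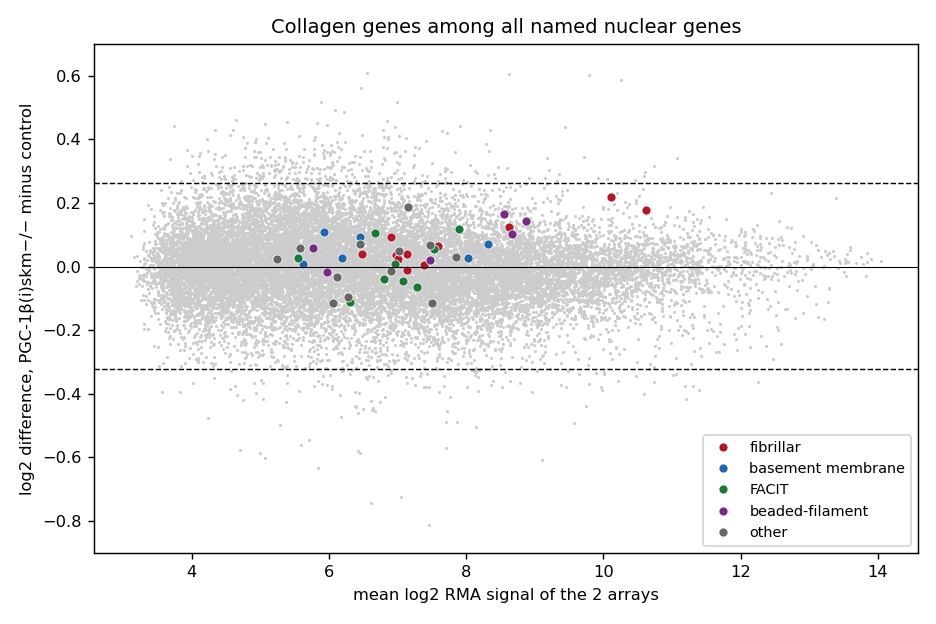
Each grey point is 1 named nuclear gene and each coloured point 1 collagen gene, placed by its mean log2 RMA signal (horizontal axis) and by the log2 difference of mutant from control signal (vertical axis), with dashed lines at ratios of 0.8 and 1.2. The 8 collagen genes with a mean signal of 8 or more all lie above 0, while those of lower signal lie on both sides.

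The genes of collagen synthesis did not share 1 pattern. For folding and modification of the chains in the endoplasmic reticulum, 10 of 17 genes were above 0 and 7 below, beside 49.6% of all genes above 0. The median of the list was 0.01, or 0.03 without genes of a mean signal under 6. None of these ratios was past 0.8 or 1.2. P4ha2, a prolyl 4-hydroxylase subunit, was at 0.18, P3h3, of the prolyl 3-hydroxylase family, at 0.11, and Crtap, a partner of prolyl 3-hydroxylation, at 0.09. On the other side, Plod3, a lysyl hydroxylase, was at −0.14 and Mia3, which takes part in the export of collagen from the endoplasmic reticulum, at −0.08. Serpinh1, the collagen chaperone HSP47, had log2 signals of 8.20 in control and 8.19 in mutant muscle. For the processing of propeptides, 6 of 7 genes were above 0, with a median of 0.13. Adamts14, a procollagen N-propeptidase, was at 0.19, and Pcolce and Pcolce2, enhancers of C-propeptide removal, at 0.15 and 0.13. Tll1, a tolloid-like protease of low signal, was the gene below 0, at −0.09.

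Most genes acting on the assembled fibril were above 0. All 4 lysyl oxidases measured were, with a median of 0.16, or 0.23 with the mean of probe sets. It was 0.0610 over 5 genes when probe sets of several genes were added and 0.35 over the 2 genes of a mean signal of 7 or more. Lox, which starts the cross-linking of collagen and elastin, had log2 signals of 7.69 in control and 8.13 in mutant muscle, a ratio of 1.36. Loxl1 had 7.80 and 8.06, a difference of 0.26 or a ratio of 1.198, just under the threshold but past it when a loess curve was subtracted. Loxl3 was at 0.04. Loxl4 was at 0.06 by the probe set of higher signal of its 2, and the higher median with the mean of probe sets comes from the other. Of 14 fibril-associated proteoglycans and glycoproteins, 13 were above 0, beside 49.6% of all genes, with a median of 0.20. A ratio of 1.2 or more was reached by 3, beside 1.64% of all genes. Fmod, fibromodulin, had log2 signals of 10.58 and 10.89, Ogn, osteoglycin, 9.92 and 10.19, and Kera, keratocan, 7.88 and 8.14. These small leucine-rich proteoglycans bind collagen fibrils, and their ratios were 1.25, 1.21 and 1.202. Epyc, epiphycan, was the gene below 0, at −0.10, and was dim.

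**Figure D4:**
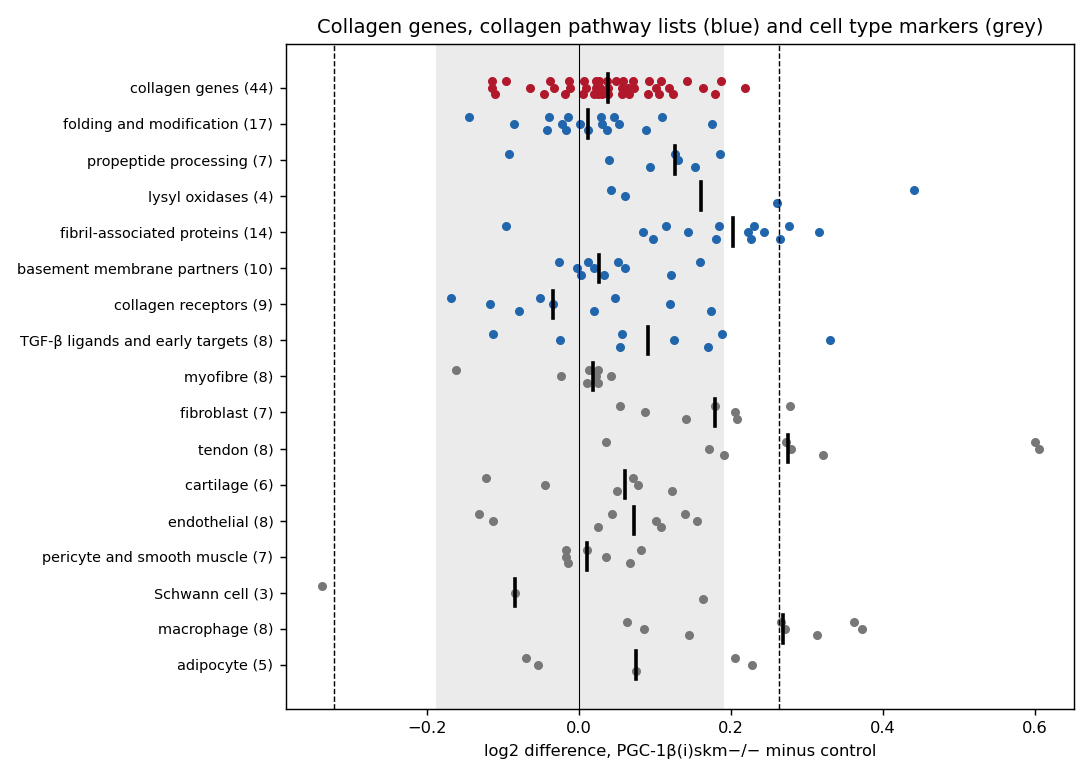
The log2 difference of mutant from control signal (horizontal axis) is plotted, 1 point a gene, for the collagen genes (red), the lists of collagen pathway genes (blue) and of cell type markers (grey), with the number of genes in parentheses. Black bars are medians, the grey band is the middle 90% of all genes, and dashed lines mark ratios of 0.8 and 1.2. The median is 0.04 for the collagen genes, 0.20 for fibril-associated proteins and 0.28 for tendon markers.

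Genes for proteins that collagens bind at the cell surface and in basement membrane had lower medians than the fibril-associated list. Standard deviations were 0.06 for basement membrane partners and 0.11 for collagen receptors, beside 0.10 for the fibril-associated list. Of 10 basement membrane partners 8 were above 0, beside 49.6% of all genes, with a median of 0.03, close to the 0.05 of type IV. Lama2, the laminin chain of the myofibre basement membrane, was at 0.16, Nid1, a nidogen that links laminin and type IV collagen, at 0.12, and Lamc1 at 0.06. Of 9 collagen receptors, 4 were above 0 and the median was −0.03, or 0.02 without genes of a mean signal under 6. Itga1, the integrin chain that binds type IV collagen, was at −0.17, Itga10 at −0.12 and Itgb1, their common partner, at −0.08. The largest difference of the list was the opposite way, at 0.17 for Mrc2, a receptor that takes up collagen, and Itga11, an integrin chain that binds fibrillar collagen, was at 0.12. Of 8 TGF-β ligands and early targets 6 were above 0, with a median of 0.09. Ltbp2, which binds fibrillin, had log2 signals of 6.20 and 6.53, a ratio of 1.26, Smad7 was at 0.19 and Tgfbi at 0.17, while Tgfb1, a ligand, was at −0.11. Without Ltbp2 and Smad7, which have a mean signal under 7, the median was 0.06 and no gene had a ratio of 1.2.

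Markers of the cells that make fibrillar collagen were also higher on the mutant array. The lists were chosen with earlier results of these data known and are no independent support for the collagen values. All 7 fibroblast markers were above 0, with a median log2 difference of 0.18 and a range of 0.05 to 0.28, and their summed linear signals were 2519 in control and 2848 in mutant muscle. Mfap5, a microfibril protein, had log2 signals of 8.78 and 9.06, a ratio of 1.21, and Clec3b and Pi16 were both at 0.21. All 8 tendon markers were above 0, beside 49.6% of all genes. Their median was 0.28 with a range of 0.04 to 0.60, and their summed signal was 3242 and 4194. Of these markers, 5 had a ratio of 1.2 or more, beside 1.64% of all genes. Prg4, lubricin, had log2 signals of 8.32 and 8.93, Chad, chondroadherin, 9.48 and 10.08, and Comp 6.87 and 7.19. Tnmd, tenomodulin, had 8.27 and 8.55, and Thbs4 10.33 and 10.60. The summed linear signal of the fibrillar collagens was 3970 and 4394, a ratio of 1.11, that of the fibroblast markers had a ratio of 1.13, and that of the tendon markers of 1.29. Such sums are weighted to the brightest probe sets. The chains of type I made up 2501 of the 3970 in control, while the median log2 difference of the fibrillar class was 0.04. Cd34, at 10.11 in control, was the brightest fibroblast marker. The part of connective tissue or tendon in the pooled pieces of muscle in these collagen values was not tested.

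Other cell types differed from one another. All 8 macrophage markers were above 0, beside 49.6% of all genes, with a median of 0.27 and summed signals of 1045 and 1257, a ratio of 1.203. Of them 5 had a ratio of 1.2 or more, as many as in the tendon list, beside 1.64% of all genes. C1qa had log2 signals of 6.66 and 7.03, C1qb 7.65 and 8.02, and C1qc 7.82 and 8.09, which encode the chains of complement C1q, and Mrc1 had 7.07 and 7.38 and Csf1r 7.22 and 7.49. The part of macrophages in the collagen values was not tested either. Of 8 endothelial markers 6 were above 0, with a median of 0.07, led by Cdh5 at 0.16, Tek at 0.14 and Pecam1 at 0.11, while Emcn was at −0.13 and Tie1 at −0.11. Of 7 pericyte and smooth muscle markers 4 were above 0, with a median of 0.01 and a range of −0.02 to 0.08, the upper end being Acta2, Pdgfrb and Rgs5. The 8 myofibre markers had a median of 0.02, with summed signals of 86928 and 87245, from −0.16 for Myh1 to 0.03 for Acta1 and Mylpf and 0.04 for Ckm. Of 5 adipocyte markers 3 were above 0, beside 49.6% of all genes. Retn was at 0.23, Lep, which was dim, at 0.21 and Plin1 at 0.08, while Adipoq was at −0.07 and Cidec at −0.05. The 3 Schwann cell markers measured went both ways. Mbp, of myelin, had log2 signals of 7.60 and 7.26, a ratio of 0.791, Pmp22 was at −0.08 and Ncmap, which was dim, at 0.16. All 6 cartilage markers, Acan and Matn1 among them, had a mean log2 signal under 6. Of these 4 were above 0, Cnmd, Acan and Snorc the highest, and the median was 0.06. Cnmd was at 0.12, while Hapln1 was at −0.12 and Matn3 at −0.04. The list for the cell type for which types II, IX and XI are best known thus held no bright marker. Chad, Comp and Prg4 were counted in the tendon list only, and the part of cartilage in the collagen values was not tested.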

How the data were processed

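Gene expression was measured on Affymetrix Mouse Gene 1.0 ST arrays, 1 per genotype, from 150 ng of total RNA. The authors extracted intensities with GeneChip Command Console 3.2 and deposited log2 signals computed by RMA in Expression Console 1.1, which corrects background, gives both arrays the same distribution (quantile normalization) and combines the probes of a set by median polish. A change of all genes together would therefore not be seen, and differences of dim genes are compressed. Median log2 signals over 35556 probe sets were 6.00 and 6.02. For the probe sets, the genome build was not given in the sources.

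Probe sets were named through the platform annotation and Entrez IDs of RefSeq genes of GRCm38.p6, and 21698 of 21789 with 1 symbol matched. Those of several genes (1621) or not listed (12146) were left out. Each of 19936 nuclear genes was represented by its probe set with the highest mean signal. As in the study's methods, a ratio of 0.8 or less counts as lower and 1.2 or more as higher. No test was possible, and precision is limited by the number of arrays.

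The collagen family as the subject, the 7 pathway lists and the 9 marker lists were chosen with earlier results of these data known. Genes listed but without a value are not analysed here. Signals are given for chains of types I, III, IV, V and VI, for up to 3 genes of each class with the largest difference at a mean log2 signal of 6 or more, and for list members past a threshold. Up to 3 members of each list that differ most in the direction of its median are named as well. Remaining genes named were chosen after their values were seen. Promoter windows are those of RefSeq, and their matches were counted in the 250 bases before the start. Alternatives were the mean of probe sets, added probe sets of several genes, filters on signal, subtraction of the median or of a loess curve (span 0.3) and other thresholds. Python 3.11.15, pandas 2.3.3, numpy 2.4.6, scipy 1.17.1, statsmodels 0.14.6 and matplotlib 3.10.9 were used.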

Additional observations from a re-analysis of the deposited data

How the results depend on the processing

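Subtracting a loess fit turned the sign of 1 of 44 collagen genes, Col4a6, taking the mean of probe sets turned Col6a5, and subtracting the median or adding probe sets of several genes turned none. The absence of collagen genes past 0.8 or 1.2 held under all planned settings. Across these settings the median of all collagen genes ran from 0.0376 with a loess curve to 0.0566 at a mean signal of at least 7. It was 0.0382 in the main analysis. With a loess curve the median was 0.0043 for FACIT collagens, 0.0224 for folding and −0.0513 for receptors, and 2 lysyl oxidases had a ratio of 1.2 or more. At a mean signal of at least 6 the medians were −0.0141 for FACIT, 0.12 for beaded-filament and 0.0090 for other collagens, 0.0292 for folding and 0.0203 for receptors. At 7 or more they were 0.0058, 0.12, 0.0496, 0.0214 and 0.0203, with 0.35 for lysyl oxidases (2 genes) and 0.0560 for TGF-β genes, of which 0 remained at 1.2. At 8 or more, chosen after seeing the data, the medians were 0.13 for all, 0.18 for fibrillar and 0.14 for beaded-filament collagens. With probe sets of several genes the lysyl oxidases had a median of 0.0610 over 5 genes, and with the mean of probe sets 0.2253 over 4. At 1.5-fold, 0 lysyl oxidases, 0 fibril-associated and 0 TGF-β genes were higher. At 1.1-fold, also added, 5 collagen genes were higher, 2 fibrillar, 2 beaded-filament and 1 other. The cause of these shifts was not tested beyond the genes each filter removes. No paired analysis was possible because each genotype has 1 array, and without replicates none could be left out. Depth does not apply to arrays, and no measure of signal over background was used.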
